A study of Mus musculus with 6 samples.

Results

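The 10 genes described here encode the classical AP-1 proteins and the immediate early factors that are usually measured with them: *Fos*, *Fosb*, *Fosl1*, *Fosl2*, *Jun*, *Junb*, *Jund*, *Atf3*, *Egr1* and *Ier3*. They were chosen by name, and all 10 were found among the 34797 names on the array, on 11 of the 55681 probes. Immortalized embryonic fibroblasts (MEF) of 3 genotypes were compared, with 2 arrays from independent samples in each group, to ask how loss of the RNA-binding protein TIA1 or of its relative TIAR (gene *Tial1*) changes RNA levels. The labels give the strain as W4 for WT MEF, BALB/c for TIA1 KO MEF and C57BL/6 for TIAR KO MEF, without an age or a treatment, so an effect of the knock-out cannot be told apart from one of strain or line. Nothing in the labels shows that a group held more than 1 line, and p-values therefore measure the spread between samples of these cells.

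AP-1 is a dimer of basic leucine zipper proteins. Fos proteins pair with Jun proteins, Jun proteins also pair with each other and with ATF proteins, and the dimers bind the palindrome TGACTCA or, for Jun with ATF partners, TGACGTCA. Many of these genes are immediate early genes, which are transcribed within minutes of a growth factor or serum stimulus through factors that are already present in the cell, and whose mRNAs are short-lived. TIA1 and TIAR bind U-rich and AU-rich stretches of RNA and are known for their roles in splicing and in translational silencing under stress.

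In TIAR KO MEF, 4 of the 10 genes were lower than in WT MEF and none was higher. These were *Egr1* (12.8-fold), *Jun* (4.42-fold), *Ier3* (2.78-fold) and *Fosl1* (2.60-fold). In TIA1 KO MEF, 1 gene was higher, *Fosl2* (3.18-fold), and none was lower. The remaining genes did not pass the test against WT MEF. A probe was called when its adjusted p by limma was under 0.05 and its fold change above 2, and by that rule 5.76% of all probes were called in TIAR KO MEF (2.37% lower and 3.39% higher) and 3.54% in TIA1 KO MEF (1.36% lower and 2.18% higher). The split depended on the scaling and on the probes kept. In TIA1 KO MEF 61.6% of the called probes were higher here, but 7.43% with the 75th percentile scaling and 44.7% among probes above background. Values with the 75th percentile scaling are read relative to the median of all probes. In TIA1 KO against WT MEF this took the same 1.98 from the difference of every gene. In TIAR KO MEF 58.8% were higher here but 36.3% with arrays scaled to a common median. Calls in TIA1 KO MEF needed both WT arrays, since limma called 0 probes without either of them (7202 and 7415 had an unadjusted p under 0.05). The median log2 fold change of the 10 genes was −0.48 in TIAR KO MEF, against −0.01 over all names, and −0.06 in TIA1 KO MEF, against −0.07 over all names. In bulk RNA, fewer cells of a type and less RNA per cell cannot be told apart.

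The TIA1 KO arrays stood apart from the others. Their median spot intensity was 458 and 218, against 152 and 140 for WT and 136 and 119 for TIAR KO, and their median local background was 89.5 and 58, against 52 and 47 for WT and 46 and 42 for TIAR KO. Fewer probes were rated well above background on them (16000 and 19920) than for WT (23531 and 26254) or TIAR KO (24754 and 25985). Both were also in a slide row of their own, which cannot be told apart from the genotype of this group.

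The deleted genes were read as a check of the labels. On its brightest probe *Tia1* gave normalized log2 intensities of 10.72 and 8.54 for WT cells, 7.87 and 8.44 for TIA1 KO cells and 9.56 and 9.58 for TIAR KO cells. Both TIA1 KO arrays were the lowest, but the WT arrays were far apart, and the log2 fold change of −1.47 ± 0.79 (SE) did not pass the test (limma, adjusted p = 0.288). The other *Tia1* probes disagreed with each other, at −1.62 (adjusted p = 0.116) and 0.87 (adjusted p = 0.149), and neither was called. The brightest probe of *Tial1* read 13.22 on the only WT array left after outlier spots were removed, 14.07 and 13.69 for TIA1 KO cells and 9.57 and 11.60 for TIAR KO cells. TIAR KO against WT gave −2.63 ± 0.87 on the log2 scale (adjusted p = 0.200) from these 3 arrays. The other *Tial1* probe was called lower in TIAR KO MEF (11.71 and 11.09 in WT, 10.00 and 9.65 in TIAR KO). Whether these probes lie in the deleted parts was not analysed here. *Gapdh*, a glycolytic enzyme used as a reference, was between 18.47 and 18.74 on all 6 arrays, but was called lower in TIA1 KO MEF (−2.06, limma adjusted p = 0.0265) with the 75th percentile scaling.

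The labelled cell type was checked as well. Of 10 fibroblast markers, the collagen genes *Col1a1* and *Col1a2*, *Col3a1*, *Pdgfrb*, *Vim* and *S100a4* were well above background on all 6 arrays, but *Pdgfra* was not well above background on either WT array (6.37 and 6.40), *Dcn* and *Thy1* were well above background on 1 WT array each, and *Lum* on none of the 6 arrays. Of these 10, TIA1 KO MEF had 6 called higher than WT and TIAR KO MEF had 7, and their summed level on the log2 scale was 18.91 and 19.02 for WT cells, 20.02 and 19.96 for TIA1 KO cells and 20.21 and 20.24 for TIAR KO cells. *S100a4* was the most abundant in both WT arrays. The macrophage marker list was led by *Itgam* (11.94 and 11.47 in WT, 13.65 and 13.40 in TIA1 KO, 11.89 and 11.85 in TIAR KO), and 1 of 6 was called higher in TIA1 KO MEF. *Cd68*, which was well above background on all 6 arrays, read 10.89 and 10.15 in WT, 10.18 and 10.17 in TIA1 KO and 11.66 and 11.64 in TIAR KO, and was not called against WT. *Csf1r*, another macrophage marker, read 8.92 and 9.03 in WT, 9.66 and 8.81 in TIA1 KO and 9.20 and 9.23 in TIAR KO. It was well above background on all arrays except TIA1 KO replicate 1. The leukocyte marker *Ptprc* and the macrophage marker *Emr1* were not well above background on any array. The summed macrophage level was 12.72 and 12.24 for WT cells, 13.90 and 13.64 for TIA1 KO cells and 12.97 and 12.93 for TIAR KO cells. Of 6 epithelial markers, TIAR KO MEF had 3 called higher than WT and TIA1 KO MEF had 1. *Krt18*, for example, read 7.29 and 7.30 in WT and 10.08 and 9.95 in TIAR KO, and *Cdh1*, the gene of E-cadherin, was not well above background in WT (6.69 and 6.76) but was on both TIAR KO arrays (8.37 and 8.26). *Epcam*, another defining marker of epithelium, was not well above background on the WT or TIAR KO arrays. The summed epithelial level was 10.01 and 9.88 for WT cells, 10.32 and 10.62 for TIA1 KO cells and 11.29 and 11.24 for TIAR KO cells. None of the 5 endothelial or 4 pluripotent cell markers was called in either comparison. These levels moved with the groups, and their part in the results below was not tested.

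Sequences that help to place the members are given first. For 8 of the 10 genes the bases upstream of the transcription start were found in RefSeq (GRCm38.p6). Shown are the 250 bases before the start of *Jun* and *Ier3*, the genes lower in TIAR KO MEF for which they were found, and of *Fos*, the name-giving partner that was not called in any comparison. Capitals mark the motif matches found by a search of both strands for the AP-1 site TGACTCA, for its longer ATF forms TGACGTCA and TGACATCA, for the TATA box as TATAAA, and for the CArG box bound by serum response factor. Of these, only the CArG box can hold another, TATAAA. *Jun* lies on the minus strand at chr4:95052223-95052472, *Fos* on the plus strand at chr12:85473640-85473889 and *Ier3* on the plus strand at chr17:35821463-35821712.
Jun: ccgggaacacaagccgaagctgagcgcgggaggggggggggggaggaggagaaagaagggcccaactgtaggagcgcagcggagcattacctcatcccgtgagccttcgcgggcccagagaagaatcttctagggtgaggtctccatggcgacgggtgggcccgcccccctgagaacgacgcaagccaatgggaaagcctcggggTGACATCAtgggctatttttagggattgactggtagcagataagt
Fos: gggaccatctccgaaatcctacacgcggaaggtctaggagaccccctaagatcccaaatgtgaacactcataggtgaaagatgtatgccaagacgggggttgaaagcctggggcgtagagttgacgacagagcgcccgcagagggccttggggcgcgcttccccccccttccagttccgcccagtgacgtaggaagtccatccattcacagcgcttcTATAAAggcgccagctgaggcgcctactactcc
Ier3: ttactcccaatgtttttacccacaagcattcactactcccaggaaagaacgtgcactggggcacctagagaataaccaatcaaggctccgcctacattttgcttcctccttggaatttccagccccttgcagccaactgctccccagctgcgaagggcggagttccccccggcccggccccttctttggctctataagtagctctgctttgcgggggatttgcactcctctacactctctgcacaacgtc
In *Jun* the match is 1 copy of TGACATCA, the variant of the ATF palindrome through which Jun is known to act on its own gene, and 2.93% of 32851 promoters of this length held it. The match in *Fos* is TATAAA (12.4% of promoters), and *Ier3* held none of the motifs, nor did the 5 further genes. TGACTCA was in 4.46%, TGACGTCA in 1.55% and the CArG box in 1.47% of all promoters. The absence of a match says only that these letters are not in this window.

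The probes themselves are 60 bases long. AU-rich elements, the class of mRNA tail sequence that TIA proteins bind, are built on the pentamer ATTTA, and 7.71% of all 55681 probes held it. Among the 10 member probes that were searched (that of *Egr1* was left out), the one of *Ier3* (mm9 chr17:35959528-35959587, plus strand) alone held ATTTA, with 2 copies, in capitals in this stretch of the probe.
Ier3 probe stretch: tgtaacacagatATTTAttacgATTTAtag
The probe positions are those of the scanner files on mm9, and exons were not assigned to them here.

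*Egr1* encodes a zinc finger factor that is induced through serum response factor and is not itself an AP-1 protein. Its normalized log2 intensity was 12.37 and 12.28 for WT cells, 11.85 and 12.02 for TIA1 KO cells and 8.55 and 8.74 for TIAR KO cells. The groups did not overlap, and the TIAR KO arrays lay far below all the others. The log2 fold change in TIAR KO MEF was −3.68 ± 0.15 (95% confidence interval −4.06 to −3.29, limma adjusted p = 0.000372). The direct comparison with TIA1 KO MEF gave −3.29 ± 0.17 (adjusted p = 0.0083), which was −2.12 but still called with the 75th percentile scaling (adjusted p = 0.0365). With the replicate block it was not called (adjusted p = 0.0640), in a fit where limma called 0 of all probes. Without TIAR KO replicate 1 or 2 the difference between the knock-outs was −3.19 and −3.38 and no longer called (adjusted p = 0.249 and 0.228), in fits where limma called 0 of all probes (6318 and 6402 had an unadjusted p under 0.05). TIA1 KO and WT MEF were not told apart by the test (−0.39 ± 0.16, adjusted p = 0.207), but *Egr1* was called lower in TIA1 KO MEF with the 75th percentile scaling (−2.47, adjusted p = 0.0257).

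**Figure D1:**
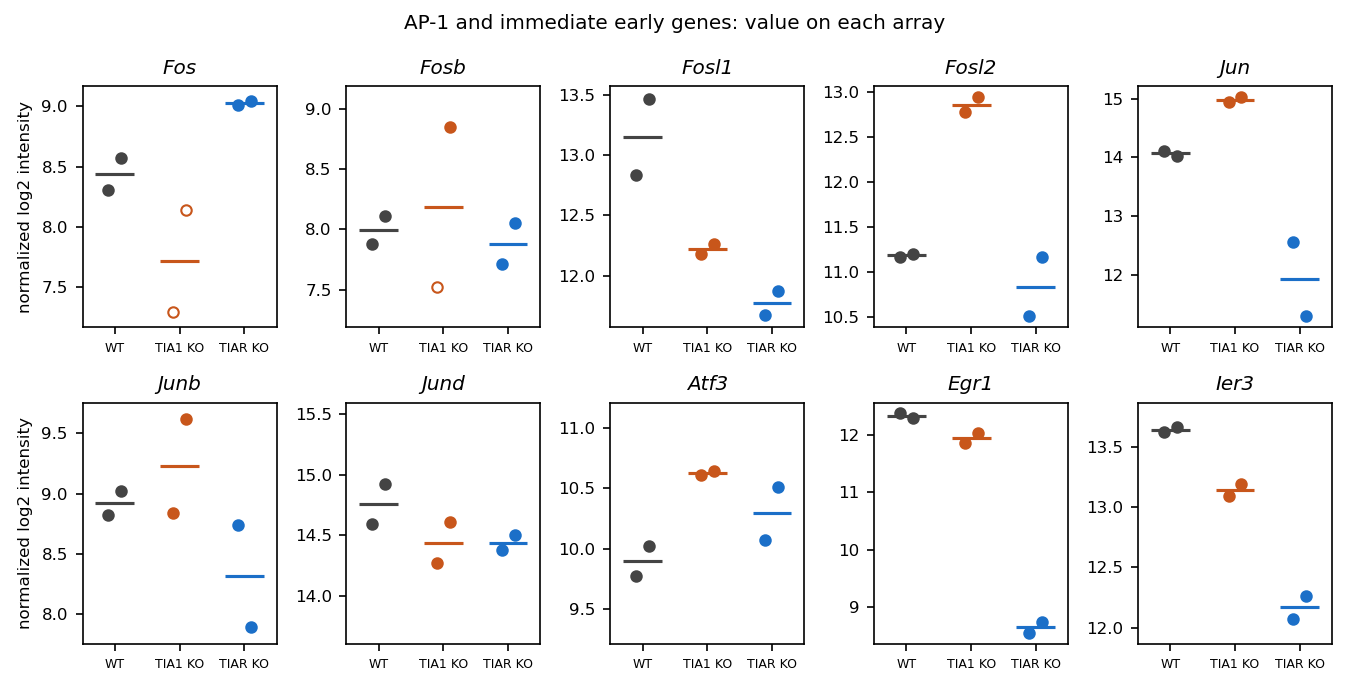
Normalized log2 intensity (y axis, a separate scale in each panel) of the brightest probe of each gene in WT, TIA1 KO and TIAR KO MEF, with a point per array and a line at the mean of the 2 arrays; open points were not well above background. *Egr1*, *Jun* and *Ier3* are lowest on both TIAR KO arrays, and *Fosl2* is highest on both TIA1 KO arrays, at 12.77 and 12.94.

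*Ier3* encodes a small early response protein, and is known as a regulator of apoptosis and ERK signalling rather than as a DNA-binding factor. Its log2 values were 13.62 and 13.66 for WT cells, 13.09 and 13.19 for TIA1 KO cells and 12.07 and 12.27 for TIAR KO cells. Every array of a group lay apart from those of the other groups, in the order WT, TIA1 KO, TIAR KO. Only the TIAR KO difference from WT passed the test (−1.47 ± 0.15, 95% confidence interval −1.85 to −1.09, limma adjusted p = 0.00554). This call was lost with the 75th percentile scaling (−1.51, adjusted p = 0.0812), with scaling to spots well above background (−1.39, adjusted p = 0.101) and with treat (adjusted p = 0.411). The steps from WT to TIA1 KO (−0.50 ± 0.15, adjusted p = 0.139) and from TIA1 KO to TIAR KO (−0.97 ± 0.17, adjusted p = 0.0697) did not. However, *Ier3* was called lower in TIA1 KO than in WT MEF with the 75th percentile scaling (−2.73, adjusted p = 0.0257) and with a common median (−1.39, adjusted p = 0.0257). With the 75th percentile scaling the step between the knock-outs turned to 1.04, and the order above did not hold.

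*Jun* encodes the central AP-1 subunit, c-Jun, whose activity is raised by JNK. Its probe (chr4:94716928-94716987, minus strand) read 14.11 and 14.03 for WT cells, 14.94 and 15.03 for TIA1 KO cells and 12.56 and 11.29 for TIAR KO cells. All 3 groups were separate, with TIA1 KO highest and TIAR KO lowest, but the TIAR KO arrays differed from each other by more than those of WT or TIA1 KO did. *Jun* fell in TIAR KO MEF, with a log2 fold change of −2.14 ± 0.41 (95% confidence interval −3.19 to −1.10; limma adjusted p = 0.0416). This call did not hold when either WT array was left out (adjusted p = 0.125 and 0.108, with log2 fold changes of −2.10 and −2.19), and the value was −2.78 without TIAR KO replicate 1 and −1.51 without TIAR KO replicate 2. It was also lost with the 75th percentile scaling (−1.94, adjusted p = 0.0726), with scaling to spots well above background (−1.82, adjusted p = 0.0960) and with treat (adjusted p = 0.587). Against WT, TIA1 KO MEF gave 0.92 ± 0.15 (adjusted p = 0.0649), which did not pass the test and whose sign turned, to −1.19, when processed intensities were scaled to their 75th percentile and read relative to the median of all probes. TIAR KO against TIA1 KO MEF gave −3.06 ± 0.46 (adjusted p = 0.0550), which passed when the 3 groups were fitted together (adjusted p = 0.0131) but was −0.93 with the 75th percentile scaling (adjusted p = 0.239).

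*Junb* and *Jund* encode the other Jun proteins, of which JunD is known for steady expression in resting cells and JunB for antagonism of c-Jun at some promoters. *Jund* read 14.59 and 14.93 for WT cells, 14.27 and 14.61 for TIA1 KO cells and 14.37 and 14.50 for TIAR KO cells. The largest of its differences was −0.32 ± 0.18 in TIAR KO MEF (95% confidence interval −0.77 to 0.12, limma adjusted p = 0.404), so a change of 2-fold lies outside that interval. In TIA1 KO MEF the difference from WT was −0.32 (adjusted p = 0.371), but *Jund* was called lower there with the 75th percentile scaling (−2.58, adjusted p = 0.0257) and with a common median (−1.24, adjusted p = 0.0497). Between the knock-outs, it was called higher in TIAR KO MEF with the 75th percentile scaling (1.65, adjusted p = 0.0438). *Junb* read 8.83 and 9.02 for WT cells, 8.84 and 9.62 for TIA1 KO cells and 8.74 and 7.89 for TIAR KO cells. The TIA1 KO arrays overlapped those of WT, and the TIAR KO arrays lay below both groups without passing the test (−0.61 ± 0.30 against WT, 95% confidence interval −1.37 to 0.15, adjusted p = 0.356). That difference from WT was −1.03 without TIAR KO replicate 1 and −0.19 without TIAR KO replicate 2. Of the Jun family, *Jun* was the only one called in TIAR KO MEF, and the family was not tested for a difference between its members.

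*Fosl1* encodes Fra-1, a Fos protein without the transactivation domain of c-Fos that accumulates in growing and transformed cells. Its probe (chr19:5455496-5455555, plus strand) read 12.84 and 13.47 for WT cells, 12.18 and 12.26 for TIA1 KO cells and 11.68 and 11.87 for TIAR KO cells. The order was WT, TIA1 KO, TIAR KO with no overlap, and WT had the widest spread. *Fosl1* fell in TIAR KO MEF (−1.38 ± 0.24, 95% confidence interval −1.99 to −0.76, limma adjusted p = 0.0325). Without WT replicate 2 the log2 fold change was −1.06 and the call was lost (adjusted p = 0.0647), as it was without TIAR KO replicate 1 (−1.28, adjusted p = 0.148) and without TIAR KO replicate 2 (−1.48, adjusted p = 0.115). TIA1 KO against WT MEF was −0.93 ± 0.26 (adjusted p = 0.129) and TIAR KO against TIA1 KO MEF −0.45 ± 0.17 (adjusted p = 0.221), neither past the threshold. With a common median and with the 75th percentile scaling, *Fosl1* was called lower in TIA1 KO than in WT MEF (−1.81, adjusted p = 0.00275, and −3.29, adjusted p = 0.0257), and the sign between the knock-outs turned (0.064 and 1.29).

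*Fosl2* encodes Fra-2, the Fos protein most like Fra-1. It was measured by 2 probes. The brighter (chr5:32460076-32460135, plus strand) read 11.17 and 11.21 for WT cells, 12.77 and 12.94 for TIA1 KO cells and 10.51 and 11.17 for TIAR KO cells. The TIA1 KO arrays were above all the others, and TIAR KO lay close to WT. The rise in TIA1 KO MEF was 1.67 ± 0.16 on the log2 scale (95% confidence interval 1.24 to 2.10; limma adjusted p = 0.0227), and TIAR KO against TIA1 KO MEF gave −2.02 ± 0.27 (adjusted p = 0.0462; 0.282 and 0.235 without either TIAR KO array), whereas TIAR KO against WT MEF gave −0.35 ± 0.24 (adjusted p = 0.529).

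The dimmer *Fosl2* probe (chr5:32455088-32455147, plus strand) did not show this. It read 7.74 and 7.76 for WT cells, 7.31 and 8.51 for TIA1 KO cells and 7.88 and 8.08 for TIAR KO cells. The TIA1 KO arrays lay on either side of WT, and differed from it by 0.16 ± 0.44 (limma adjusted p = 0.824). On TIA1 KO replicate 1 this probe was not well above background. Its value there was measured near background, and enters the mean of both probes. With the mean of both probes *Fosl2* was not called (0.91, adjusted p = 0.122). The call on the brighter probe was also lost without either WT array (log2 fold changes of 1.65 and 1.69). It was lost too with a common median (0.85, limma adjusted p = 0.216) and with scaling to spots well above background (adjusted p = 0.0797). Nor did it hold with treat (adjusted p = 0.298) or with the replicate block (adjusted p = 0.0663). Its direction turned to −0.48 (adjusted p = 0.413) with the 75th percentile scaling of processed intensities. The direct comparison of the knock-outs was not called with that scaling (−0.21, adjusted p = 0.652) or with the mean of both probes (−0.97, adjusted p = 0.163). Of 17 alternatives 10 ended that call, among them offset 16 (adjusted p = 0.0508), no loess (adjusted p = 0.0546) and the replicate block (adjusted p = 0.108).

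**Figure D2:**
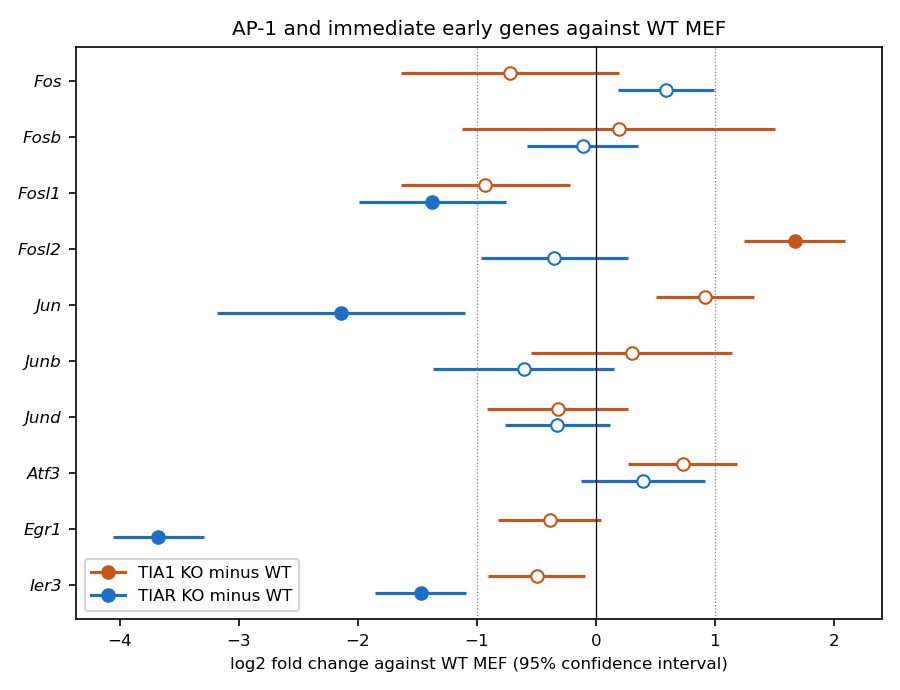
Log2 fold change against WT MEF (x axis) of each gene in TIA1 KO (orange) and TIAR KO MEF (blue), with bars for the 95% confidence interval from limma; filled points were called, and dotted lines mark a 2-fold change. The filled blue points are *Fosl1*, *Jun*, *Egr1* and *Ier3*, from −1.38 to −3.68, and the filled orange point is *Fosl2*, at 1.67. The orange point of *Fos* was measured near background.

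*Fos*, which encodes c-Fos, was read from 10 spots of 1 probe on each array (chr12:86817900-86817959, plus strand). Its log2 values were 8.31 and 8.57 for WT cells, 7.29 and 8.14 for TIA1 KO cells and 9.01 and 9.04 for TIAR KO cells. Both TIAR KO arrays lay above both WT arrays. On the TIA1 KO arrays, *Fos* was not well above background, so their values were measured near background and no size is given for a difference from them. None of the comparisons passed the test. TIAR KO against WT MEF gave 0.59 ± 0.16 (95% confidence interval 0.18 to 0.99, limma adjusted p = 0.106). The adjusted p was 0.245 for TIA1 KO against WT MEF and 0.131 for TIAR KO against TIA1 KO MEF. *Fos* was called lower in TIA1 KO than in WT MEF without TIA1 KO replicate 2 (adjusted p = 0.0294) and with the 75th percentile scaling (adjusted p = 0.0257).

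The *Fos* spots also showed how differently the arrays measured a dim gene. After 1 outlier spot was left out on each of 4 arrays, all remaining spots of the WT and TIAR KO arrays were well above background, but 0 of 9 on TIA1 KO replicate 1 and 3 of 9 on TIA1 KO replicate 2. Unnormalized intensities ran from 252 to 361 with a median of 303 on WT replicate 1, and from 286 to 373 with a median of 321 on WT replicate 2. On TIA1 KO replicate 1 they ran from 188 to 674 with a median of 460, and on replicate 2 from 144 to 810 with a median of 343. By their median, the raw intensities of the TIA1 KO spots were not lower than those of WT. Their local background reached 260 and 185 on these arrays, against at most 55 on any WT or TIAR KO array. After normalization the SD between spots was 0.17 and 0.11 for WT cells, 0.35 and 0.67 for TIA1 KO cells and 0.19 and 0.17 for TIAR KO cells.

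**Figure D3:**
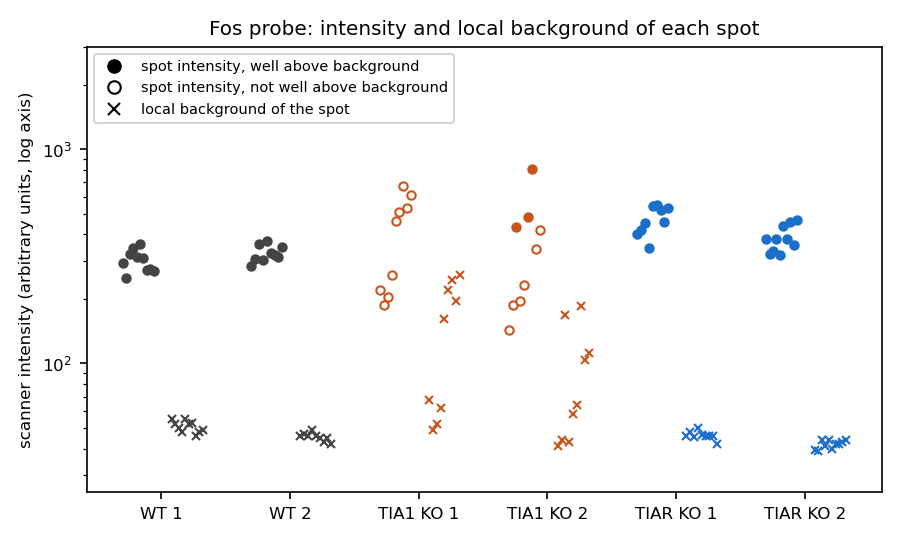
Scanner intensity (y axis, log scale, before normalization) of each *Fos* spot on the 6 arrays (circles, open where not well above background) and the local background around it (crosses), without outlier spots. On the TIA1 KO arrays the crosses reach 260 and 185 and most circles are open, while all WT and TIAR KO spots are filled.

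*Fosb*, whose protein is known from neurons and serum-stimulated fibroblasts, was dim as well. It read 7.88 and 8.11 for WT cells, 7.52 and 8.85 for TIA1 KO cells and 7.71 and 8.05 for TIAR KO cells, and was not well above background on TIA1 KO replicate 1. The 3 groups overlapped. Against WT it differed by 0.19 ± 0.48 on the log2 scale in TIA1 KO MEF (95% confidence interval −1.12 to 1.51) and −0.11 ± 0.19 in TIAR KO MEF (−0.58 to 0.36), so that a 2-fold change lies inside the interval for TIA1 KO and outside it for TIAR KO MEF. With scaling to spots well above background the TIA1 KO difference was 2.02, beyond the interval above, and was not called (adjusted p = 0.0797).

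*Atf3* encodes an ATF protein that is induced by stress and can pair with Jun. It read 9.78 and 10.02 for WT cells, 10.61 and 10.65 for TIA1 KO cells and 10.07 and 10.51 for TIAR KO cells. Both knock-outs lay above WT without overlap, TIA1 KO highest, and neither difference was called (0.73 ± 0.17, limma adjusted p = 0.102, and 0.40 ± 0.21, adjusted p = 0.385). The sign of the TIA1 KO difference turned to −1.24 with the 75th percentile scaling.

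Across the 10 genes, the TIAR KO arrays lay below both WT arrays for 7 and above them for 2, where 27% of all probes were lower and 21.9% higher without overlap. TIA1 KO arrays lay below for 4 and above for 3, where the shares of all probes were 39.2% and 26%. Directly compared, TIAR KO was called lower than TIA1 KO MEF for 2 genes, *Egr1* and *Fosl2*, and higher for none, against 1.63% and 1.72% of all probes (51.3% of the calls were higher in TIAR KO MEF, 89.8% with the 75th percentile scaling, 28.7% with a common median and 6.66% with scaling to spots well above background). The TIAR KO arrays lay below both TIA1 KO arrays for 7 genes and above for 1, where the shares of all probes were 25% and 34.9%. The comparisons with WT share the WT arrays, so the values of a gene in them are not independent.

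The authors' own normalized log2 table gave similar values for the same probes. In it *Egr1*, whose probe lies on chromosome 18, read 12.43 and 12.33 for WT cells against 8.75 and 8.94 for TIAR KO cells, a change of −3.54 on the log2 scale (limma adjusted p = 0.000335). The same 4 genes were called lower in TIAR KO MEF, with −2.07 for *Jun* (adjusted p = 0.0340), −1.43 for *Ier3* (adjusted p = 0.00594) and −1.28 for *Fosl1* (adjusted p = 0.0328), and *Fosl2* was called higher in TIA1 KO MEF at 1.65 (adjusted p = 0.0334). TIAR KO against TIA1 KO MEF differed, since *Fosl2* missed the threshold there (−2.0, adjusted p = 0.0583).

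For each gene, the one most like it among 117 genes of the related lists was found by the root mean square difference of log2 values over the 6 arrays, each centred on its WT mean. *Jund* was closest to *Dusp5* (0.077) and *Atf3* to *Klf6* (0.134). *Jun* was nearest to *Hbegf*, an EGF receptor ligand (0.332), *Fosl2* to *Areg*, another such ligand (0.374), *Fosl1* to *Cebpb* (0.333) and *Ier3* to *Ier2* (0.344). *Fos* was nearest to *Egr2* (0.322), *Fosb* to *Nr4a2* (0.313) and *Junb* to *Ier5* (0.289). *Egr1* was nearest to *Spp1*, at the largest of these distances (0.618). The distance is not scaled for the size of a change, so it also reflects how far a gene moved.

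The related lists were read from the brightest probe of each name. By the same rule 4.51% of names were called in TIA1 KO MEF (2.88% higher and 1.63% lower), 7.18% in TIAR KO MEF (4.36% and 2.82%), and 4.18% between the knock-outs (2.06% higher and 2.12% lower in TIAR KO). Of 23 other basic leucine zipper genes, which can be partners of Fos and Jun, 2 were lower in TIA1 KO MEF and none higher, and 3 were higher and 1 lower in TIAR KO MEF. *Maff*, a small Maf protein that lacks a transactivation domain, was lower in both, at 12.76 and 12.78 for WT cells, 10.78 and 11.05 for TIA1 KO cells and 11.38 and 11.82 for TIAR KO cells (−1.85 ± 0.17, limma adjusted p = 0.0223, and −1.17 ± 0.19, adjusted p = 0.0253). Of 17 alternatives, 5 ended the TIA1 KO call of *Maff* and 6 its TIAR KO call. *Batf3*, known for its role in dendritic cells, fell by 2.16 in TIA1 KO MEF (11.38 and 11.73 in WT, 9.17 and 9.63 in TIA1 KO), where 1 of the 2 TIA1 KO arrays was well above background. The call of *Batf3* was lost under 7 of 17 alternatives (−4.69 to −1.93). The rises in TIAR KO MEF included *Cebpd*, a C/EBP factor of acute phase responses (1.63 ± 0.25, adjusted p = 0.0197), and *Ddit3*. The median log2 fold change of the list was −0.44 for TIA1 KO and −0.22 for TIAR KO.

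Of 32 other immediate early genes, 4 were higher and 1 lower in TIA1 KO MEF, and 2 were higher and 3 lower in TIAR KO MEF. *Ctgf*, a matricellular protein gene, was at 14.47 and 14.84 for WT cells, 17.73 and 18.02 for TIA1 KO cells and 16.20 and 16.22 for TIAR KO cells, and rose in both (3.22 ± 0.22, limma adjusted p = 0.0117, and 1.56 ± 0.18, adjusted p = 0.0081). *Nr4a1*, an orphan nuclear receptor, read 12.65 and 12.29 for WT cells, 14.51 and 14.33 for TIA1 KO cells and 11.07 and 11.02 for TIAR KO cells. It was called in opposite directions against WT (1.95 ± 0.20, adjusted p = 0.0273, which turned to −0.21 with the 75th percentile scaling, and −1.43 ± 0.18, adjusted p = 0.0107), and the difference between the knock-outs was −3.37 ± 0.16 (adjusted p = 0.00796). *Klf2*, a Krüppel-like factor, fell in TIAR KO MEF by 1.61. Of 17 alternatives, 5 ended the TIAR KO call for each of *Ctgf*, *Nr4a1* and *Klf2*. In TIA1 KO MEF, 4 ended the call of *Ctgf* and 6 that of *Nr4a1*, besides its turn of sign. *Dusp1*, a phosphatase of MAP kinases, and *Klf4* were the other rises in TIA1 KO MEF, with 2.04 ± 0.16 for *Dusp1*, whose sign turned to −0.34 with the 75th percentile scaling, and *Maff* was the fall. In TIAR KO MEF the second rise was *Sik1* and the third fall *Maff*. The list had a median log2 fold change of 0.30 for TIA1 KO and −0.05 for TIAR KO.

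Upstream, none of the 7 genes of serum response factor and its cofactors was called in any comparison. Of 26 MAP kinase pathway genes, 1 was higher and 1 lower in TIA1 KO MEF, and 3 were higher and 1 lower in TIAR KO MEF. *Map2k6*, the kinase that activates p38, rose in both, from 8.32 and 8.79 in WT to 11.01 and 11.37 in TIA1 KO and 11.49 and 11.25 in TIAR KO MEF (2.64 ± 0.25, limma adjusted p = 0.0226, and 2.82 ± 0.21, adjusted p = 0.00206). Its TIA1 KO call was lost under 6 of 17 alternatives (1.09 to 3.39), and its TIAR KO call under 0. *Mapk7*, which encodes ERK5, rose by 1.41 ± 0.14 in TIAR KO MEF (adjusted p = 0.00482), as *Mapk9* was also called to do, and *Rps6ka5*, the nuclear kinase MSK1, fell by 1.62. *Rps6ka1*, encoding RSK1, was the fall in TIA1 KO MEF, a call lost under 9 of 17 alternatives (log2 fold change −3.51 to −1.12). Of 11 feedback inhibitors of the ERK pathway, *Dusp1* was the 1 called in TIA1 KO MEF, and 2 were called higher in TIAR KO MEF. *Spry1*, a Sprouty protein that damps receptor tyrosine kinase signalling, read 7.36 and 7.02 for WT cells, 9.83 and 9.03 for TIA1 KO cells and 11.51 and 11.47 for TIAR KO cells, a log2 fold change of 4.30 ± 0.17 in TIAR KO MEF (adjusted p = 0.000367). *Dusp4*, a nuclear MAP kinase phosphatase, rose by 1.5 ± 0.24 (adjusted p = 0.0244), a call lost under 6 of 17 alternatives.

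Genes widely used as AP-1 targets moved in both directions. Of 20, 3 were higher and 1 lower in TIA1 KO MEF, 4 were higher and 4 lower in TIAR KO MEF, and 3 were higher and 5 lower in TIAR KO against TIA1 KO MEF, with medians of 0.38, −0.44 and −0.75. *Spp1*, the gene of osteopontin, was at 15.71 and 15.40 in WT and 15.98 and 16.04 in TIA1 KO but at 11.09 and 11.38 for TIAR KO, which was −4.32 on the log2 scale against WT (limma adjusted p = 0.00044). The collagenase gene *Mmp13* went the other way. It was not well above background in WT or TIA1 KO MEF and read 10.25 and 10.21 in TIAR KO MEF (limma adjusted p = 0.000786 against WT). *Mmp3*, stromelysin, was also called higher there than in WT (adjusted p = 0.00239). Each WT value was raised to at least the lowest value rated well above background on its array. The differences from WT were then 9.75-fold for *Mmp13* and 3.35-fold for *Mmp3*. Other probes read above that lowest value without being rated so, and these folds are not strict lower bounds.

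*Ptgs2*, which encodes the inducible cyclooxygenase, read 10.83 and 11.27 for WT cells, 13.29 and 13.74 for TIA1 KO cells and 9.13 and 9.18 for TIAR KO cells. It was called higher in TIA1 KO MEF (2.47 ± 0.26, limma adjusted p = 0.0279) and lower in TIAR KO MEF, and the knock-outs differed by −4.36 ± 0.21 (adjusted p = 0.00809). The call of *Ptgs2* in TIA1 KO MEF was lost under 5 of 17 alternatives (0.43 to 2.69). *Plau*, the urokinase gene, read 8.15 and 8.08 for WT cells, 11.05 and 11.35 for TIA1 KO cells and 9.31 and 9.27 for TIAR KO cells, and was called higher in both (3.09 ± 0.18 in TIA1 KO, adjusted p = 0.0084). The chemokine gene *Ccl2* read 17.66 and 17.72 for WT cells, 14.38 and 14.43 for TIA1 KO cells and 16.56 and 16.67 for TIAR KO cells, and was called lower in both (−3.29 ± 0.15 in TIA1 KO, adjusted p = 0.00557). The other calls were *Areg* higher in TIA1 KO MEF, and *Il6* higher and *Hbegf* lower in TIAR KO MEF.

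**Figure D4:**
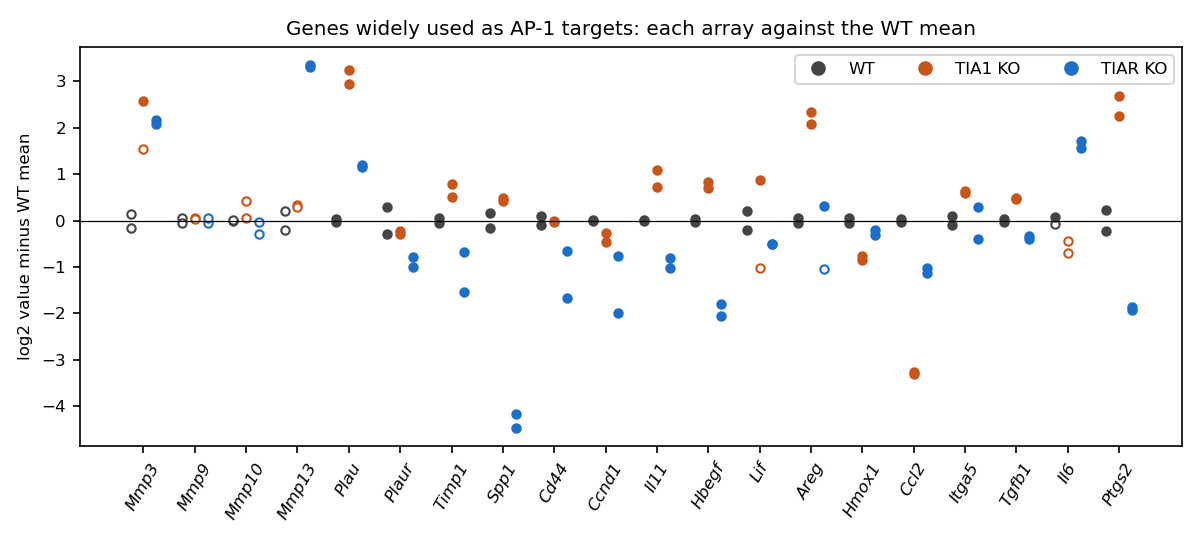
Difference of the log2 value on each array from the mean of the WT arrays (y axis) for 20 genes widely used as AP-1 targets, with WT in grey, TIA1 KO in orange and TIAR KO in blue; open points were not well above background. *Spp1* lies far below 0 on the TIAR KO arrays alone, *Mmp13* above 0, and *Ptgs2* above 0 on TIA1 KO and below it on TIAR KO arrays.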

How the data were processed

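Cy3-labelled RNA from the MEF of each genotype was measured on 1-colour arrays. The authors deposited the scanner intensity, local background and flags of each spot, not normalized between arrays, and a table of normalized log2 values, joined to the scanner files by spot number. From the intensities, background was corrected by normexp (offset 50), log2 taken, a single pass of loess towards the array mean and quantile normalization applied, control and outlier spots left out and spots of a probe averaged. Each column of the authors' log2 table had a median of 7.22 or 7.23 and correlated with these values of its array at 0.997 to 0.999 and the table was used as an alternative. Per the methods, the authors made it by the same steps, with quantile scaling last. A probe was well above background where the scanner software rated 50% or more of its spots that way. A gene was read from its brightest probe.

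Comparisons were fitted with limma on their own 4 arrays, without covariates, with Benjamini-Hochberg adjustment over all 55681 probes, and tested on simulated data. The 10 genes, the related lists and the tests were chosen with earlier results of these data known. Named were all 10 genes, *Tia1*, *Tial1* and *Gapdh*, the nearest gene to each member, and up to 3 called genes per list and comparison, those with the largest log2 fold changes. *Ddit3*, *Klf4*, *Mapk9* and *Il6*, and the markers singled out, were named after their values were seen. The values of 1 called gene of the related lists are not reported here. From 16000 to 26254 probes per array were well above background; 2 arrays per group limit the precision. R 4.3.3, limma 3.58.1, the package data.table (version 1.17.8), Python 3.11.15 and matplotlib 3.10.9 were used.

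The alternatives were other scalings (75th percentile, common median, no loess, offset 16), a filter on dim probes, outlier spots kept, all groups fitted together, an intensity trend, treat, a replicate block, the authors' log2 table, the mean of a gene's probes, each array left out and, chosen after the data were seen, scaling to spots well above background on all 6 arrays.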

Additional observations from a re-analysis of the deposited data

Results flagged for a closer look

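The results below were singled out because the knock-outs differed from each other in a direct test of TIAR KO against TIA1 KO MEF (limma, 2 arrays per group). Among the 10 genes these were *Egr1* (−3.29 on the log2 scale, adjusted p = 0.0083) and *Fosl2* (−2.02, adjusted p = 0.0462), which was not called with the 75th percentile scaling (−0.21, adjusted p = 0.652) or with the mean of its probes (−0.97, adjusted p = 0.163). Among the related genes, only the 3 with the largest differences in each list were considered, although 1 was higher and 4 were lower among other immediate early genes, and 3 were higher and 5 lower among AP-1 targets. They were *Spp1* (−4.78), *Ptgs2* (−4.36), *Nr4a1* (−3.37) and *Klf2* (−2.19), lower in TIAR KO MEF, and *Mmp13* (3.02) and *Sik1* (2.07), higher there. Of 17 alternatives, 10 ended the call of *Fosl2* and 9 that of *Klf2* (−2.85 to −0.94, adjusted p up to 0.379). The call was lost under 5 for *Sik1*, 4 for *Nr4a1* and *Mmp13*, and 3 for *Spp1*, *Ptgs2* and *Egr1*. *Mmp13* and *Sik1* were not well above background on the TIA1 KO arrays, so these values were measured near background. Each TIA1 KO value was raised to at least the lowest value rated well above background on its array. *Mmp13* was then 6.14-fold and *Sik1* 3.05-fold higher in TIAR KO MEF. Other probes read above that lowest value without being rated so, and these folds are not strict lower bounds. The knock-outs also differ in strain and slide row, from which genotype cannot be told apart.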

How the results depend on the processing

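Of the 10 genes, *Egr1* alone kept its direction and its call in TIAR KO MEF under all 17 alternatives (log2 fold change −4.41 to −3.54, limma adjusted p 0.000233 to 0.00855). The 4 genes called in TIAR KO MEF became 2 with the 75th percentile scaling and with scaling to spots well above background on all 6 arrays (an alternative chosen after the data were seen), both times *Egr1* and *Fosl1*, 1 with treat (*Egr1*), and 2 to 3 when 1 array was left out. In TIA1 KO MEF the 1 called gene became 5 with the 75th percentile scaling (*Fos*, *Fosl1*, *Jund*, *Egr1* and *Ier3*, all lower), 3 with a common median (*Fosl1*, *Jund* and *Ier3*, all lower), 0 with treat, with spots well above background and with the mean of probes, and 0 to 2 when 1 array was left out. For TIAR KO against TIA1 KO MEF the 2 called genes became 1 with offset 16, without loess, with treat, with the authors' table and with spots well above background, 3 with the 75th percentile scaling (*Fos*, *Jund*, *Egr1*), 3 with a common median, dim probes left out, all groups together or an intensity trend (*Fosl2*, *Jun*, *Egr1*), and 0 to 4 when 1 array was left out. With the mean of probes they were *Jun* and *Egr1*. Without either WT array limma called 0 of all probes in TIA1 KO MEF (7202 and 7415 had an unadjusted p under 0.05), and without TIA1 KO replicate 1 or 2 it called 3068 and 10735 there and 3422 and 10086 in TIAR KO against TIA1 KO MEF. Without either TIAR KO array it called 0 against TIA1 KO MEF (6318 and 6402 had an unadjusted p under 0.05). In such fits a single remaining array takes its spread from the other group. The cause was not tested.

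The 75th percentile scaling moved the median of all probes by 1.98 (TIA1 KO against WT) and −1.84 (TIAR KO against TIA1 KO), and fold changes under it are relative to that median. A common median moved it by −0.68 and 0.63, and spots well above background by 2.21, 0.12 (TIAR KO against WT MEF) and −1.90. The 75th percentile scaling and that to spots well above background use the same processed intensities. Within a comparison their fold changes differ by the same amount for all probes. For *Egr1* in TIA1 KO MEF they were −2.47 and −0.26. These settings are therefore not independent, and the falls with the 75th percentile hold this common shift. Under the 75th percentile scaling the sign turned in TIA1 KO MEF for *Fosb* (−0.19), *Fosl2* (−0.48), *Jun* (−1.19), *Junb* (−0.97), *Atf3* (−1.24), *Dusp1* (−0.34) and *Nr4a1* (−0.21), and in TIAR KO against TIA1 KO MEF for *Fosl1* (1.29), *Junb* (0.25), *Jund* (1.65), *Atf3* (1.46) and *Ier3* (1.04). In the latter comparison it also turned for *Jund* without loess (0.0095), with a common median for *Fosl1* (0.064), *Jund* (0.50) and *Atf3* (0.038), and when 1 array was left out for *Jund* (−0.17 to 0.17) and *Fosb* (−0.97 to 0.36). With 1 array left out, *Fosb* ran from −0.47 (without TIA1 KO replicate 2) to 0.86 and *Junb* from −0.087 (the same array) to 0.69 in TIA1 KO MEF, and *Fosb* from −0.28 to 0.056 (without TIAR KO replicate 1) in TIAR KO MEF. With spots well above background *Fosb* was 2.02 in TIA1 KO MEF and −2.29 between the knock-outs, and *Junb* 1.24 and −1.66, none of them called. *Gapdh* was called lower in TIA1 KO MEF with the 75th percentile scaling (−2.06, adjusted p = 0.0265). It turned there with spots well above background (0.15) and with 1 array left out (−0.13 to 0.049), and in TIAR KO MEF with the 75th percentile (−0.062), a common median (−0.13) and the mean of probes (−0.081).

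Replicate numbers did not pair the arrays (correlations of deviations 0.078, 0.030 and −0.073). With the replicate block, the called genes were 0 in TIA1 KO MEF, 4 in TIAR KO MEF and 0 in TIAR KO against TIA1 KO MEF, and the called probes 671, 3302 and 0 (10675 with an unadjusted p under 0.05), against 1969, 3206 and 1866 without it. Other counts of called probes that moved by over 1.5 times were, in TIA1 KO MEF, 17368 (75th percentile), 11125 (common median), 3986 (all groups together), 440 (treat), 1309 (the authors' log2 table) and 0 (spots well above background, with 27767 at an unadjusted p under 0.05), in TIAR KO MEF, 1016 (treat), and in TIAR KO against TIA1 KO MEF, 14888 (75th percentile), 6727 (common median), 3183 (all groups together), 409 (treat), 2910 (dim probes left out) and 1172 (spots well above background).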
